A study of Mus musculus with 24 samples.

Results

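ATP8 and ATP6 are the 2 genes of mouse mitochondrial DNA (mtDNA) that encode subunits of ATP synthase, and their 296 listed cytosines among the 5829 of the whole mtDNA are described here. All listed cytosines of both strands between nt 7766 and 8607 of chrM (build mm10) were taken, and a site was used in a library where its coverage was at least 10 reads. ATP8 spans chrM:7766-7969 and ATP6 chrM:7927-8607, both in the annotation of RefSeq, so the 43 nt from 7927 to 7969 belong to both reading frames. The L strand, which is the reference sequence and has the sense of both mRNAs, carries 221 of the cytosines, with 42 in ATP8 outside the overlap, 11 in the overlap and 168 in ATP6 outside the overlap. The H strand, the template of both mRNAs, carries 75, with 9, 3 and 63 in these segments.

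The study asked how much 5-methylcytosine (5mC) mtDNA holds. mtDNA came from E14 cells, an established mouse embryonic stem cell (ESC) line grown on feeder cells in 2i-LIF medium, and from brain and liver that the labels give as C57BL/6J. The study's methods also name liver of ICR mice without saying which liver preparations it went into. In the 24 libraries, there were 3 ESC, 2 brain and 2 liver preparations, together called native, and 1 synthetic mtDNA, a PCR product that is free of 5mC and has no replicate. All mtDNA was linearised by BglII or, for the synthetic product, made to match that linear form, was spiked with λDNA and was treated with bisulfite. ESC preparations 1 and 2 (E1, E2), brain preparation 1 (B1), liver preparation 1 (L1) and synthetic mtDNA (S1) were treated for 5, 15, 40 and 60 min. For ESC preparation 3 (E3) the durations were 60 and 90 min. Brain and liver preparations 2 (B2, L2) had 60 min only, so that B2_60 denotes brain preparation 2 after 60 min. The age and sex of the mice were not given in the sources used here.

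ATP synthase makes ATP from the proton gradient across the inner mitochondrial membrane. ATP6 encodes the subunit that, with the ring of c subunits, forms the path for protons, and ATP8 encodes a small subunit of the same membrane part. Both proteins are made from a shared transcript, in which the reading frames overlap. Bisulfite turns unmethylated cytosine of single-stranded DNA into uracil, whereas 5mC stays. A cytosine that stays is therefore either modified or escaped the reaction. For L-strand reads the study names a further possible source, which was not tested here. Products of a repeated copying step on H-strand fragments without cytosine could align to the L strand. Their bases would then be scored as unconverted cytosines. The unconversion rate is the percent of the reads over a cytosine that still show C, and averages are means over sites.

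The L strand of both genes is poor in guanine. Guanines make up 8.91% of the 842 nt of the genes and 12.35% of the whole L strand, with 9 in the 161 nt that are ATP8 alone (5.59%) and 63 in the 638 nt that are ATP6 alone (9.87%). The following stretches of the L strand are shown because the L-strand result turns on them. They are runs of at least 3 neighbouring cytosines, each covered in at least 6 of the 8 libraries of 60 min, and they were chosen after the coverage was known. Sequences come from the mm10 reference, are written 5′ to 3′ and have guanines in capitals.
Stretch A, chrM:7788-7868, ATP8: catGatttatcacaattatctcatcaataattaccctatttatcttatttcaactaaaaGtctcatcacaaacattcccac
Stretch B, chrM:8013-8021, ATP6: cctattccc
Stretch C, chrM:8191-8246, ATP6: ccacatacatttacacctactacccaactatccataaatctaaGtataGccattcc
Stretch D, chrM:8295-8317, ATP6: ctcacttGcccacttccttccac
Stretch E, chrM:8326-8371, ATP6: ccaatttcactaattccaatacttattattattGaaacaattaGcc

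The overlap of the reading frames, chrM:7927-7969, is shown in the same way but with its cytosines in capitals, because none of its 11 L-strand cytosines reached 10 reads in any library of 60 min.
Overlap: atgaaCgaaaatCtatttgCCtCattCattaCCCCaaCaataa

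The libraries held between 257028 and 2260572 cytosine calls, of which 11910 to 101545 lay in ATP8 and ATP6. Over all 24 libraries, the median cytosine of the genes was covered by 10 reads (L strand) or 287 reads (H strand), beside 24 and 259 reads for all listed cytosines. At 60 min, 36 (B2_60) to 139 (S1_60) of the 221 L-strand cytosines were covered, whereas all 75 of the H strand were covered in every library. The L-strand sites covered after 60 min had a median coverage of 16 to 39 reads per library, at which 3 unconverted reads make 7.69 to 18.8%, and the same floor for H-strand sites was 0.288 to 2.05%. Floors and intervals cover counting error only, since reads were not identified as separate molecules. Replicates were separate preparations. In the genes, 2 libraries stood apart from the rest, B2_60 on the L strand and E1_15 on the H strand, and the comparisons that B2_60 or E1_15 moves most are also given without it.

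After 60 min, most covered L-strand cytosines of both genes were read as unconverted, and nearly all H-strand cytosines were converted. The values used here appear to include the reads that were 90% or more unconverted. The study discarded such reads and then reported nearly complete conversion of both strands over the whole mtDNA. The mean L-strand rate was 60.3% in E1_60, 75.8% in E2_60, 74.1% in E3_60, 71.2% in B1_60, 96.7% in B2_60, 74.6% in L1_60 and 71.2% in L2_60, and it was 72.4% in synthetic mtDNA. B2_60 lay above all other libraries, and synthetic mtDNA lay within the range of the native libraries. The mean H-strand rate was 0.256 to 0.668% in the 7 native libraries and 0.291% in synthetic mtDNA. The strands differed by 74.2 percentage points (SD 10.1, n = 8 preparations), with the L strand higher in 8 of 8 (exact sign-flip permutation test, two-sided, p = 0.00781, the smallest it can give, adjusted p = 0.0332 over 17 tests). Of the 651 covered L-strand values of the 8 libraries, 374 (57.5%) were at 90% or more and 115 (17.7%) were under 10%. All 600 H-strand values were under 10%, with a highest value of 3.5%, and 257 were at 0.

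**Figure D1:**
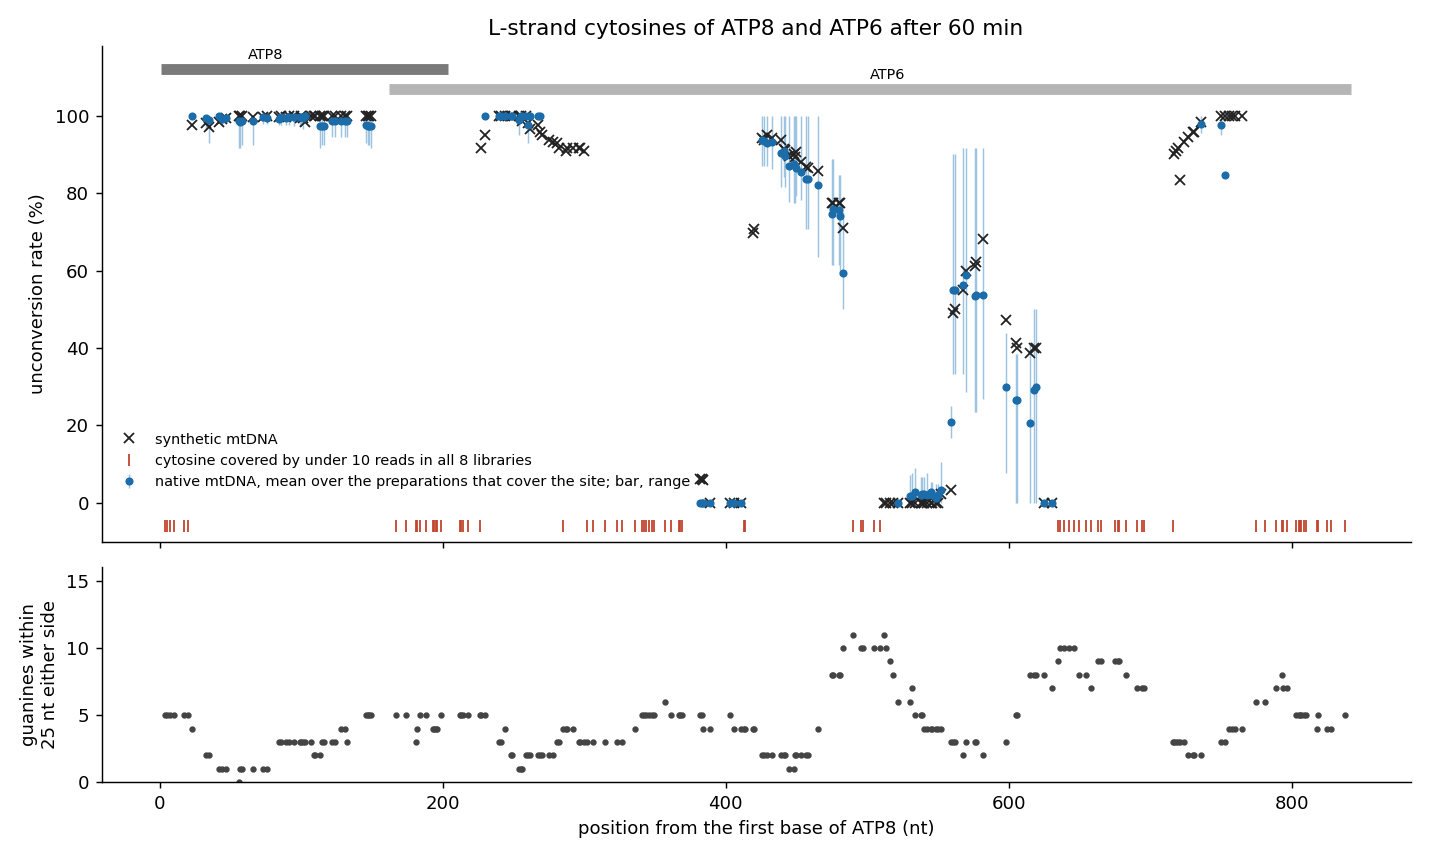
Top, unconversion rate (%) of each L-strand cytosine after 60 min against its position from the first base of ATP8 (nt), with dots for the mean of the native preparations that cover the site, bars for their range, crosses for synthetic mtDNA, and ticks for cytosines that no library covered by 10 reads; grey bars mark the genes. Bottom, number of guanines within 25 nt either side of each cytosine. Covered ATP8 sites stay near 100%, ATP6 sites run from 0 to 100%, and crosses follow the dots.

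ATP8 was almost fully unconverted on the L strand. Outside the overlap, 36 of its 42 cytosines were covered in at least 1 library of 60 min and 14 in all 8. The 14 means over 8 libraries lay between 98.6 and 99.7%, and the lowest single value among them was 91.7%, in B2_60. The mean of ATP8 outside the overlap was 98.9% ± 1.58 (SD, n = 7 native preparations) and 99.6% in synthetic mtDNA. The 3 highest of the 14 were nt 7851 (99.7%), nt 7860 (99.7%) and nt 7865 (99.6%), and the 3 lowest were nt 7822 (98.6%), nt 7821 (98.8%) and nt 7831 (98.9%), so that these cytosines hardly differed among themselves. Stretch A, which has 21 cytosines and 2 guanines, had a mean of 95.9% in B2_60, of 99.0 to 100% in the other 6 native libraries and of 99.3% in synthetic mtDNA.

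ATP6 held the intermediate and the converted sites. Outside the overlap, its native mean was 61.2% ± 17.5 (SD, n = 7), or 55.2% ± 7.98 (SD, n = 6) without B2_60, and the synthetic mean was 62.9%. It was 45.5% in E1_60, 65.6% in E2_60, 48.0% in E3_60, 59.5% in B1_60, 97.2% in B2_60, 60.8% in L1_60 and 51.4% in L2_60. On the L strand, ATP8 exceeded ATP6 by 37.6 points (SD 17.4, n = 8), in 7 of 8 preparations with B2_60 as the exception, which missed the threshold after adjustment (exact sign-flip permutation test, p = 0.0156, adjusted p = 0.0531). B2_60 covered 22 ATP6 sites, whereas the other libraries covered 29 to 103, and without it the difference was 43.1 points. These means are over different cytosines in each library. At sites covered in all 8 libraries the difference was 10.1 points (99.3% against 89.2%), also in 7 of 8 preparations. Only 14 of the 168 ATP6 cytosines were covered in all 8 libraries, all within stretch C. The highest means among these were nt 8191 (93.9%), nt 8192 (93.4%) and nt 8198 (93.4%), and the lowest were nt 8223 (83.9%), nt 8222 (84.0%) and nt 8218 (85.8%).

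Within ATP6, rates changed over short distances. Stretch B, which has no guanine, had a mean of 99.8% ± 0.447 (SD, n = 5 native preparations) and 99.7% in synthetic mtDNA. Its native mean was lower at earlier times, at 87.6% after 15 min and 86.7% after 40 min (n = 3 each). Synthetic mtDNA was at 96.4% and 100% at these times. Stretch C had a mean of 86.7% ± 8.32 (SD, n = 7) and 87.9% in synthetic mtDNA, and its site means fell from 93.9% at its first cytosine to 74.7% at its last. Stretch D, whose first cytosine lies 49 nt after the last of stretch C, was at 2.18% ± 2.69 (SD, n = 6), with 0.2% in synthetic mtDNA. Stretch E, whose first cytosine lies 9 nt after the last of stretch D, was at 50.1% ± 23.7 (SD, n = 6) and 53.4%. The native libraries of stretch E spread from 21.0% (E1_60) to 91.2% (B2_60), and without B2_60 its mean was 41.9% ± 13.9 (SD, n = 5). The median coverage was 13 reads in stretch B, 20 reads in stretch D and 13 reads in stretch E. Cytosines of a stretch are read together in the same reads, so they are not independent measurements.

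**Figure D2:**
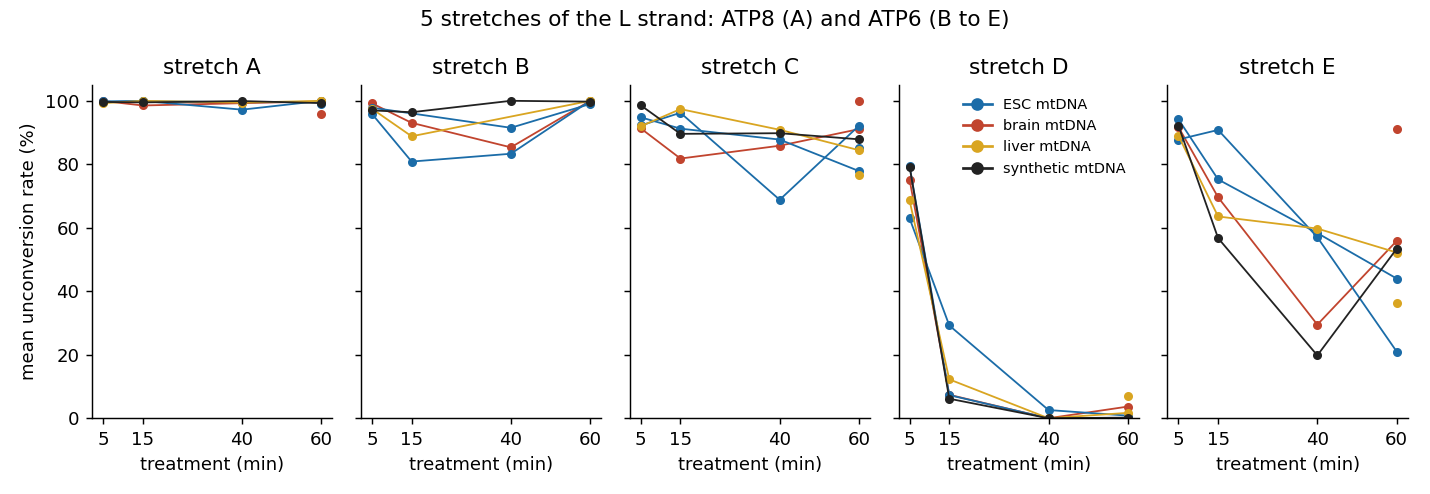
Mean unconversion rate (%) of the 5 L-strand stretches against bisulfite treatment (min), 1 line or point per preparation, coloured by source of mtDNA. Stretch A stays near 100% at every time, stretch D falls from 63.0 to 79.5% at 5 min to at most 6.9% at 60 min, and stretch E lies between them.

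In windows of 50 nt counted from the first base of ATP8, the highest L-strand mean after 60 min was in the window chrM:7966-8015 (99.7%, 98.1 to 100% in the 6 libraries that covered it) and the lowest was in chrM:8266-8315 (1.71%, 0 to 6.57% in 7 libraries). Of the 17 windows, 4 had no covered L-strand site in any library of 60 min. These were chrM:7916-7965, 8066-8115, 8416-8465 and 8566-8607, the first being in the overlap and the last at the end of ATP6, whose final base is also the first of COX3. On the H strand, the window means lay between 0.0125% (chrM:7816-7865, 1 cytosine) and 0.506% (chrM:8466-8515, 2 cytosines).

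Set beside the other listed cytosines of mtDNA, the L strand of ATP8 and ATP6 was far less converted. Its mean of 74.5% over the 8 preparations exceeded the 30.6% of the rest by 43.9 points (SD 6.98, 8 of 8 preparations, exact sign-flip permutation test, p = 0.00781, adjusted p = 0.0332). Against the other protein genes alone, the difference was 35.4 points. With the rest weighted to the guanine counts of the genes, an alternative added after the data were seen, it was 16.7 points (p = 0.00781 by the same exact test). Leaving out every site at 50% or more gave 4.72 points in 7 preparations (p = 0.0625 by the same exact test). Among the 13 protein genes, ND6 had the highest L-strand mean over the 8 libraries (99.5%), followed by ATP8 with its overlap (99.0%). ND2 (79.2%), ND4 (66.9%) and ATP6 with its overlap (61.4%) came next. COX3, the next gene downstream, was at 3.47% and COX2, the nearest protein gene upstream, at 27.6%, or at 18.4% without B2_60, which covered 8 sites there.

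Among the L-strand cytosines of the genes, the rate went with the number of guanines within 25 nt either side. Sites with 4 or fewer such guanines had a native mean of 81.5% ± 7.31 (SD, n = 7) and a synthetic mean of 82.3%, and those with 5 to 8 had 37.8% ± 12.8 (SD, n = 6) and 41.1%. The 4 covered sites with 9 or more went against this order in native mtDNA, with 59.4% ± 13.6 (SD, n = 3) and 17.8% in synthetic mtDNA. Outside the genes, the same bands had 65.0% ± 4.84 (SD, n = 7) and 11.6% ± 1.70 (SD, n = 7) in native mtDNA. Across the 67 sites covered in at least 6 libraries, Spearman's rho between guanine count and mean rate was -0.60 and Pearson's r was -0.55, given as a description, since neighbouring sites share reads and nearly all of their windows. Across 2039 such sites outside the genes, rho was -0.76. The relation was not even within the genes, because 9 sites with 8 guanines had a mean of 60.4% over libraries that cover different sites among them, whereas 304 sites elsewhere with this count had 3.52%. Of the 9, the 4 at the end of stretch C (nt 8240, 8241, 8245 and 8246) had means of 74.7 to 76.2%, nt 8380, 8383 and 8384 had 26.6 to 32.5%, and nt 8283 and 8390 were at 0. By codon position outside the overlap, native means were 69.8% ± 12.8 for the first, 80.1% ± 9.87 for the second and 73.5% ± 10.7 for the third position (SD, n = 7). The differences between codon positions were not tested.

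**Figure D3:**
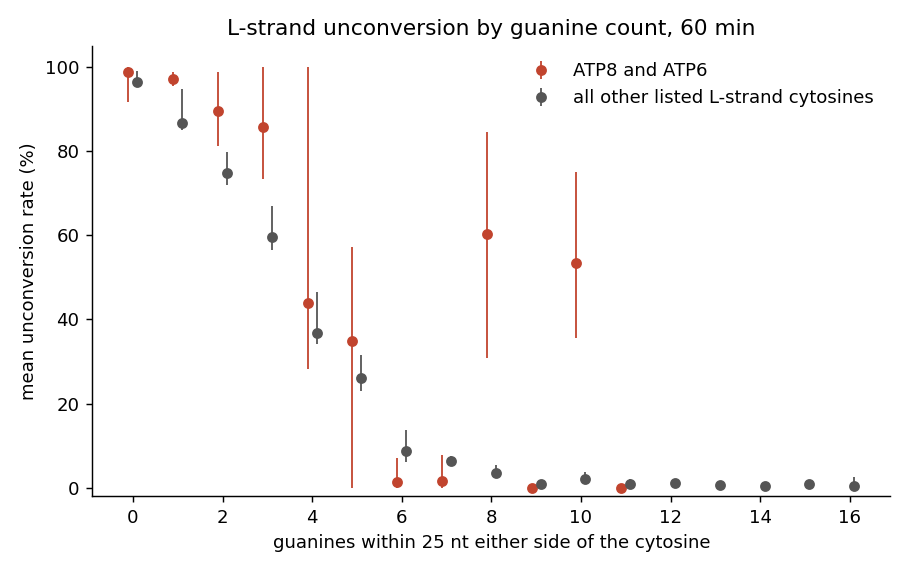
Mean unconversion rate (%) of L-strand cytosines after 60 min by the number of guanines within 25 nt either side, for ATP8 and ATP6 and for all other listed cytosines. Points are means of library means and bars run from the lowest to the highest library; the points of the genes at 0, 9 and 11 guanines are 1 site each, and those at 8 guanines hold 9 sites with a mean of 60.4%.

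Native and synthetic mtDNA were compared to ask whether any cytosine of the genes is unconverted beyond what 5mC-free DNA shows. Where synthetic mtDNA is itself near 100%, as in stretches A (99.3%) and B (99.7%), the comparison cannot show a native excess. The L-strand means differed by 2.43 points (74.8% ± 10.9, SD, n = 7, against 72.4%), with 4 of 7 native libraries above synthetic mtDNA (exact permutation test, two-sided, p = 0.625, where 0.125 is the smallest possible). Without B2_60 the difference was -1.21 points. At a coverage minimum of 30 the difference was 21.0 points, with 7 of 7 native libraries above, over sites that differ between libraries. For the H strand, native mtDNA had 0.384% ± 0.158 (SD, n = 7) and synthetic mtDNA 0.291% (exact permutation test, p = 0.75). Of 142 sites tested singly (67 L, 75 H), limma on the logit of the rate called 0 at an adjusted p under 0.05, beside 0% of all 3950 sites tested. An unadjusted p under 0.05 was found at 17 of the 142 and at 455 of the 3950 sites. Fisher's exact test on summed reads called 0 of the 142, beside 1.04% of all sites. With coverage as weights, limma called 1, the H-strand cytosine at nt 8402 of ATP6, at 0.751% in native and 0.124% in synthetic mtDNA (adjusted p = 0.0343), beside 1.80% of all sites by this rule. That cytosine is itself a CG site of the H strand and is described with the CG sites below. At the same 67 L-strand sites, Pearson's r between the native mean and the synthetic rate was 0.993, and at the 75 H-strand sites it was 0.352, both as descriptions across sites that share reads.

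ESC mtDNA was set beside that of both tissues. The L-strand means were 70.0% in ESC (n = 3) and 78.4% in tissue (n = 4), a difference of -8.38 points (SD within groups 10.6, exact permutation test, two-sided, p = 0.543, smallest possible 0.0571). Without B2_60 the tissue mean was 72.3% (n = 3) and the difference was -2.29 points. The H-strand means were 0.291% and 0.454% (exact permutation test, p = 0.257), with ESC libraries at 0.257 to 0.353% and tissue libraries at 0.256 to 0.668%, so the groups overlapped. None of 142 sites was called by limma, beside 0% of 3942 sites tested, and 6 had an unadjusted p under 0.05, as had 168 of all sites. Fisher's exact test called 0 of the 142, beside 0.0254% of all sites.

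On the H strand, individual cytosines of the genes stayed under 2% on average. Only nt 8234 in ATP6 and nt 7904 in ATP8 had means of 1% or more over the 8 libraries, and the other 73 were under 1%. The sequences around the 3 cytosines with the highest means are given 5′ to 3′ on the H strand with that cytosine in capitals, because they had the highest H-strand rates of the genes.
chrM:8224-8244, nt 8234: aatggctataCttagatttat
chrM:7894-7914, nt 7904: ggggtttttaCttttatggtt
chrM:8119-8139, nt 8129: tattagggttCatgttcgtcc
At nt 8234 the rate was 1.5% in E1_60, 1.2% in E2_60, 1.8% in E3_60, 1.2% in B1_60, 0.7% in B2_60, 0.5% in L1_60 and 1.7% in L2_60, and it was 1.4% in synthetic mtDNA. At nt 7904 the native rates were 0.8 to 1.8%, and the synthetic rate was 1%. Synthetic mtDNA lay inside the native range at both sites. At nt 8129 the native rates were 0 to 2.1%, with a synthetic rate of 0.5%. The third highest of ATP6 was nt 7987 (0.85%), and the next in ATP8 were nt 7929 (0.238%) and nt 7933 (0.213%), both in the overlap. The lowest means were 0.0125% at nt 7847, 0.05% at nt 7871 and 0.075% at nt 7870 in ATP8, and 0.025% at nt 8321 and 0.075% at nt 8164 and nt 8426 in ATP6. All native libraries lay above synthetic mtDNA at 1 of the 75 H-strand cytosines and below it at 5. Among the latter, nt 7847, 8164 and 8321 were at 0% in all native libraries and at 0.1, 0.6 and 0.2% in the deeper synthetic library. At nt 8164 native coverage was 15 to 44 reads beside 155, so 1 unconverted read would exceed the synthetic rate. Outside the overlap, ATP8 (0.242%) was below ATP6 (0.399%) in 8 of 8 preparations (exact sign-flip permutation test, p = 0.00781, adjusted p = 0.0332), and at the floors given above these levels rest on few reads per site. The genes together (0.372%) were below the rest of the H strand (0.598%) in 8 of 8 preparations (p = 0.00781 by the same exact test, adjusted p = 0.0332), but against the other protein genes the difference was -0.0966 points (p = 0.0859).

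**Figure D4:**
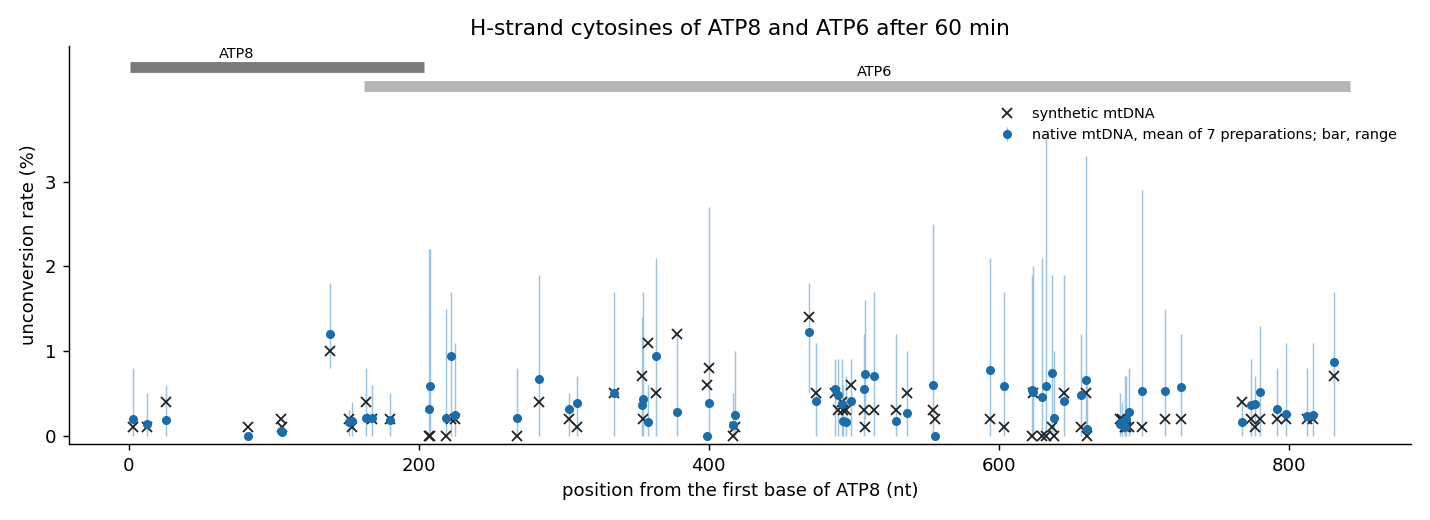
Unconversion rate (%) of the 75 H-strand cytosines after 60 min against position from the first base of ATP8 (nt), with dots for the mean of 7 native preparations, bars for their range and crosses for synthetic mtDNA; grey bars mark the genes. Means stay below 1.3%, and no native value exceeds 3.5%.

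CG sites, where mammalian 5mC is best known, number 10 on each strand of the genes. Their L-strand cytosines are at nt 7932 in the overlap and at nt 7983, 8032, 8047, 8122, 8262, 8278, 8401, 8448 and 8562 in ATP6, with the H-strand partner at the next position, and ATP8 outside the overlap has none. On the L strand, 7 of the 10 had no library with 10 reads after 60 min. The site at nt 8032 was at 97.5 to 100% in 3 libraries, that at nt 8047 at 91.7% in 1 library and that at nt 8278 at 0% in 1 library. All 10 H-strand CG sites were covered in 8 libraries, with means of 0.15% (nt 8449) to 0.663% (nt 8402) and a highest single value of 1.9%. At nt 8402 the rate was 0% in E1_60 and E2_60, 0.6% in E3_60, 1% in B1_60, 1.2% in B2_60, 1.9% in L1_60, 0.5% in L2_60 and 0.1% in synthetic mtDNA. So 2 of 7 native libraries lay below synthetic mtDNA there, and the highest rate, in L1_60, rests on a coverage of 104 reads. CG sites and other cytosines of the H strand had means of 0.365% and 0.373% over 8 preparations (exact sign-flip permutation test, p = 0.828). On the L strand, 3 preparations could be compared, with a difference of 14.7 points (SD 21.1, exact sign-flip permutation test, p = 0.5, smallest possible 0.25), which was 7.52 points without B1_60, 9.75 without E2_60 and 26.8 without S1_60.

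The time course showed how each strand and gene reached these levels. The H strand of both genes was at 26.6 to 31.3% after 5 min, and after 15 min it was at 3.32 to 3.84% in 4 libraries and at 10.6% in E1_15. It was at 0.359 to 0.604% after 40 min. E1_15 was also at 10.5% on the H strand outside the genes, so that it stood apart there too. From 5 to 15 min the H-strand mean fell by 24.7 points (SD 2.68, 5 of 5 preparations, exact sign-flip permutation test, p = 0.0625, the smallest possible). Limma called 75 of 75 H-strand sites lower at 15 min, beside 99.9% of all H-strand sites tested, and 73 of 75 lower at 40 than at 15 min, beside 88.6%. Without ESC preparation 1, whose library E1_15 stood apart, the H-strand difference was -25.7 points from 5 to 15 min. From 15 to 40 min it was -4.52 points with this preparation and -3.09 points without it. From 40 to 60 min the mean moved by -0.109 points (exact sign-flip permutation test, p = 0.125).

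**Figure D5:**
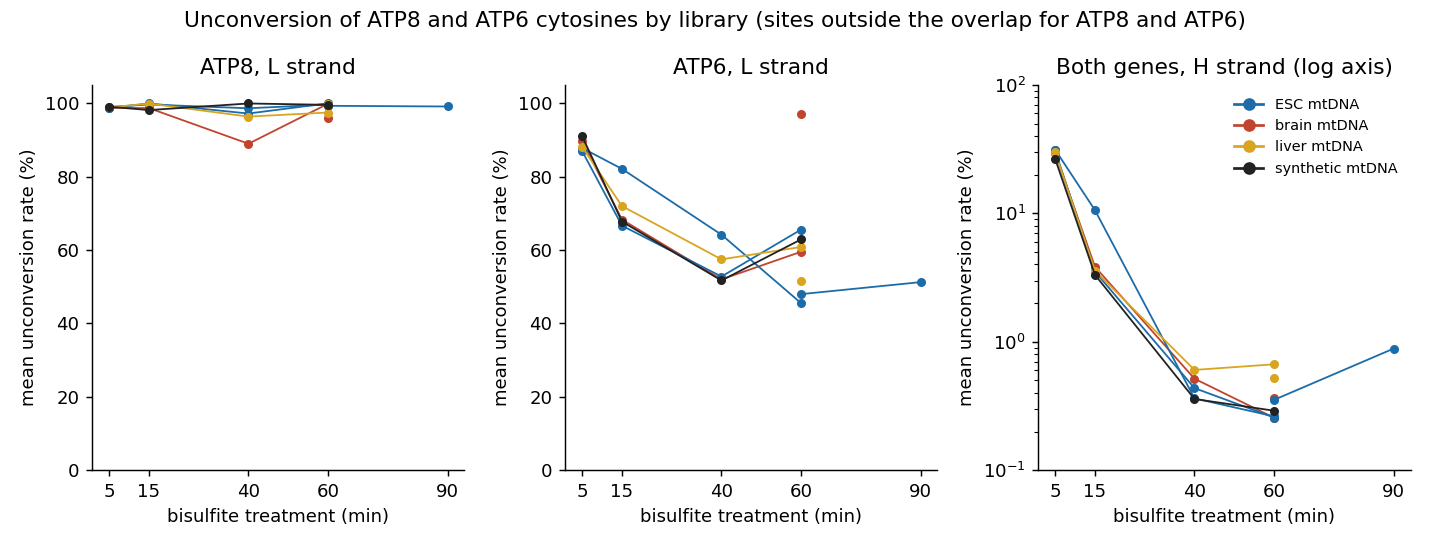
Mean unconversion rate (%) against bisulfite treatment (min) for the L strand of ATP8 and of ATP6, each outside the overlap, and for the H strand of both genes (log axis), 1 line or point per preparation, coloured by source. ATP8 stays at 89.0% or more, ATP6 falls until 40 min, and the H strand falls below 1% by 40 min.

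On the L strand, ATP6 fell and ATP8 hardly moved. From 5 over 15 to 40 min, the native mean of ATP6 outside the overlap went from 88.2% ± 1.16 over 72.3% ± 6.94 to 56.6% ± 5.60 (SD, n = 4), with 91.1%, 67.8% and 51.7% in synthetic mtDNA. That of ATP8 was 98.8% ± 0.157, 99.6% ± 0.594 and 95.3% ± 4.32 at the same times (SD, n = 4), with 99.1%, 98.2% and 99.9% in synthetic mtDNA. The lowest of these ATP8 values was 89.0% in B1_40, where 58.3% of its covered sites were at 90% or more. Over both genes the L-strand mean fell by 11.2 points from 5 to 15 min and by 11.3 points from 15 to 40 min, in 5 of 5 preparations each (exact sign-flip permutation test, p = 0.0625). These means are over different cytosines. A library covered 162 to 201 sites after 5 min, 79 to 131 after 15 min and 77 to 114 after 40 min. At sites covered in every compared library, the 2 changes were -12.6 and -8.05 points. At a coverage minimum of 30 the first was -4.28 points, with 3 of 5 preparations higher at 15 min (exact sign-flip permutation test, p = 0.5). The second was then -8.48 points, with 1 of 5 higher at 40 min. From 40 to 60 min the L-strand mean differed by 1.71 points (SD 9.88, exact sign-flip permutation test, p = 0.688), with 4 of 5 preparations higher at 60 min.

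Single L-strand sites showed the same split. Limma called 48 of 79 L-strand sites lower at 15 than at 5 min, beside 83.4% of all L-strand sites tested, with 29 of 44 in ATP6 and 19 of 35 in ATP8. The ATP8 calls were small in rate, with a median change of -0.714 points, and 0 of the 19 fell by 5 points or more. The logit of a site that is unconverted in all reads falls with its coverage, and the median coverage of ATP8 sites was 164 to 239 reads per library after 5 min and 43 to 80 reads after 15 min. In ATP6, 23 of the 29 fell by 5 points or more. In both genes together these 23 of 79 compare with 75.9% of all L-strand sites called by both criteria. From 15 to 40 min, 20 of 56 sites were called lower, beside 24.9% of all L-strand sites tested, and all 20 were the tested sites of stretches D and E, whereas 0 of 20 in stretch A and 0 of 16 in stretch C were called. All 20 fell by 5 points or more, beside 7.31% of all L-strand sites. From 40 to 60 min, limma called 0 of 134 sites on both strands, beside 0% of 3753, and 5 had an unadjusted p under 0.05, as had 264 of all sites.

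In native libraries, averaged over 4 after 5 min and 7 after 60 min, unconverted reads per cytosine fell also where rates hardly moved. The native mean rate of stretch A was 99.6% after 5 min and 99.2% after 60 min. In stretch A, a native library held on average 188.1 unconverted and 0.679 converted reads per cytosine after 5 min, and 80.4 and 0.286 after 60 min. In stretch C the unconverted reads went from 272.8 to 20.6 per cytosine and the converted ones from 21.7 to 2.97. In stretch D the unconverted reads went from 55.3 to 0.429, whereas converted reads were at 19.6 and 17.4. In stretch E the unconverted reads went from 126.7 to 7.6, and the converted ones from 11.7 to 7.1. In synthetic mtDNA, stretch A held 172.2 unconverted reads per cytosine after 5 min and 346.2 after 60 min. The synthetic library of 60 min was also deeper, with a median H-strand coverage of the genes of 1041 reads, beside 287 after 5 min. The study mixed all libraries at equal concentration before sequencing, so read numbers are not amounts of DNA.

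Treatment for 90 min was available from ESC preparation 3 only. At 47 L-strand sites covered at both times, the mean was 71.2% in E3_60 and 75.7% in E3_90, with 27 sites higher and 8 lower at 90 min. Over the 59 sites that each library covered by itself, the order was the other way, with 74.1% in E3_60 and 70.7% in E3_90. On the H strand the mean over 75 sites was 0.353% and 0.885%, with a median coverage of 292 and 87 reads. With 1 library at each time, these differences were not tested.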

How the data were processed

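The authors prepared post-bisulfite adapter tagging (PBAT) libraries, sequenced them on a MiSeq, trimmed first reads with TrimGalore and mapped them to chrM (mm10) with Bismark and its PBAT option; the versions for this step are not given in the sources used here. For each cytosine the authors deposited the percent of reads that were unconverted, to 1 decimal, and the coverage as a count of reads, without normalization. The study discarded reads that were 90% or more unconverted; the values used here appear to precede that step, because many L-strand sites lie at 90% or more. The authors' replicates were not pooled.

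Unconverted reads were taken as percent times coverage, rounded. The coverage minimum was 10. Strand means were compared by exact two-sided permutation tests (over preparations) or exact sign-flip permutation tests (within preparations), and their 17 p-values were adjusted after Benjamini and Hochberg. Single sites were tested over all listed cytosines with limma 3.58.1 in R 4.3.3 on the empirical logit (offset 0.5), with preparation as a block between durations, which the labels' shared preparation numbers of a source give, and with Benjamini-Hochberg adjustment (threshold 0.05). Native and synthetic sites needed coverage in synthetic mtDNA. On simulated data with 200 changed sites, limma recovered 69% of changes of 3 logit units between native and synthetic mtDNA and 10.7% of its calls were false. These shares were 89% and 4.76% for ESC against tissue, and 91% and 3.03% for 60 against 40 min. The simulation gave every site the same spread between libraries and raised every changed site. Real spread differed between sites, with native libraries of stretch E at 21.0 to 91.2%, so the shares need not hold at such sites. The earlier steps were not simulated. Named sites are the 3 highest and 3 lowest per gene and strand among sites that all 8 libraries of 60 min cover, every called site, all CG pairs and the extreme 50 nt windows; nt 8402 was called only with coverage as weights. Alternatives were coverage minimums of 20 and 30, reads pooled over sites, sites shared by all libraries, sites of 50% or more left out, other blocks, offsets and weights, Fisher's exact test, and each replicate left out. The weighting to guanine counts and the criterion of 5 percentage points were added after seeing the data. The members and lists were chosen with earlier results of these data known. λDNA reads were not analysed here.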

Additional observations from a re-analysis of the deposited data

Results flagged for a closer look

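In 29 groups of 4 to 7 native values that were examined for a library far from the others by Dixon's criterion, 7 such values were found, where chance gives about 1 in 20 groups; the groups share libraries, so the 7 are not separate events. After 15 min, E1_15 had an H-strand mean of 10.6% over both genes, while the other 3 native libraries were at 3.52 to 3.84%. It was at 10.43% in ATP8 (others 3.33 to 4.33%) and at 10.56% in ATP6 (others 3.52 to 3.76%), and it was the highest of the 5 libraries of 15 min at 73 of the 75 cytosines.

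After 60 min, B2_60 had an L-strand mean of 96.7% over both genes (others 60.3 to 75.8%) and of 97.2% in ATP6 (others 45.5 to 65.6%), but of 95.9% in stretch A of ATP8, below the others at 99.0 to 100%. It covered 36 L-strand sites, and at these the 6 other libraries that covered all of them had means of 78.6 to 89.6%; E3_60 covered 28 of them, with a mean of 92.3%. In stretch B, E2_60 was at 99% and the other 4 native libraries were at 100%. That value rests on 1 converted read at nt 8019, where E2_60 was at 95% with a coverage of 20 reads. With the other libraries tied, the criterion flags a difference of any size.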

How the results depend on the processing

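Of 265 values recomputed under alternatives for 22 results, 246 were classed as unchanged. For strand means this meant the same direction and the same side of the threshold by the unadjusted p. By this rule ATP8 minus ATP6 on the L strand counted as passing, although it missed the threshold after adjustment. For single-site tests it meant a similar number of called sites, such as 94 in place of 123 for 15 versus 5 min at a coverage minimum of 20. The L-strand difference of native and synthetic mtDNA turned to -1.96 points with reads pooled over sites, -1.29 at sites shared by all libraries and -0.496 without sites of 50% or more, and ran from -1.21 to 4.86 when single replicates were left out. It rose to 6.65 points at a coverage minimum of 20 and to 21.0 points at 30, both classed as unchanged. At 30, native mtDNA had 95.1% and synthetic mtDNA 74.1%, with 7 of 7 native libraries above (exact permutation test, p = 0.125, the smallest possible). ESC minus tissue on the L strand turned to 4.58 points at a coverage minimum of 30 and ran from -11.2 to -2.29 when single replicates were left out. The excess of the genes over the rest of the L strand was 4.72 points (p = 0.0625, exact sign-flip permutation test) with sites of 50% or more left out, and the H-strand deficit was -0.0966 points (p = 0.0859, same exact test) against other protein genes. ATP8 minus ATP6 on the L strand was 23.6 points (p = 0.125, exact sign-flip permutation test, n = 4) at a coverage minimum of 30. It was 10.1 points at sites shared by all libraries, which was classed as unchanged. CG minus other H-strand cytosines turned to 0.0171 points with pooled reads and ran from -0.0219 to 0.0179 over left-out replicates. From 40 to 60 min the L-strand difference turned to -3.60 points with sites of 50% or more left out and ran from -0.582 to 5.83. Native against synthetic sites gave 1 call with coverage as weights (71 among all 3950 sites), and 15 to 40 min gave 45 calls in place of 93 where a change of 5 points was also required (674 in place of 2170 among all sites). Apart from these alternatives' own construction, the cause was not tested.

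Without the replicate block that pairs durations by preparation, the unpaired exact permutation test passed the threshold without adjustment (p = 0.00794 each). From 5 to 15 min this held for -11.2 points (L) and -24.7 points (H). From 15 to 40 min it held for -11.3 and -4.52 points. The paired test cannot go below 0.0625. ESC and tissue replicates share only a number (correlations of same-numbered deviations -0.079 to 0.079), and the replicate block for ESC against tissue changed no call.

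Depth limits the L strand: 82 of the 221 cytosines had no library with 10 reads after 60 min. With 1 synthetic preparation, the test of strand means has a smallest p of 0.125.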
